A study of Mus musculus with 6 samples.

Results

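The genes described here are the granule proteases of mast cells and basophils together with granzymes A and B, measured in cultured mouse megakaryocytes. The 10 genes, Gzmb, Gzma, Mcpt1, Mcpt2, Mcpt4, Cma1, Mcpt8, Cpa3, Tpsb2 and Tpsab1, were taken by name, with each probe set that the platform annotation assigns to one of them alone. They have 11 probe sets among 45037 that are not controls, and every member has at least 1. The study compared 3 arrays of FOG1 ki/ki megakaryocytes, whose genotype label reads FOG1-/- ki/ki, with 3 control arrays. Control replicates 1 and 2 were FOG1+/- and control replicate 3 was FOG1+/+, so the FOG1+/+ genotype rests on 1 array. FOG1, the product of Zfpm1, binds GATA transcription factors as a cofactor. The labels do not say what the knocked-in allele changes. All mice had a mixed C57BL/6xSv129 background, and all cultures were grown from fetal liver with thrombopoietin and enriched for mature megakaryocytes on an albumin gradient.

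Mast cells and basophils store proteases at high concentration in secretory granules, bound to the proteoglycan serglycin, and release them when IgE receptors are crosslinked. The mouse set comprises chymases and their relatives (Cma1 and the Mcpt genes), tryptases (Tpsb2 and Tpsab1) and the carboxypeptidase encoded by Cpa3, while granzymes are the related proteases of cytotoxic lymphocytes, with Gzmb also known from mouse mast cells. Mast cells and megakaryocytes share the factors GATA1 and GATA2, and FOG1 is known in mouse progenitors as a restraint on mast cell differentiation.

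Of the 10 genes, 6 gave a signal above background on every array, apart from Gzmb on control replicate 3, and each of these 6 averaged higher in FOG1 ki/ki than in control cultures. Gzmb stood furthest apart, at a mean signal of 1073 ± 651 in FOG1 ki/ki and 174 ± 161 in control cultures (SD, n = 3 each). Cpa3, Mcpt8, Cma1, Mcpt1 and Mcpt2 had log2 differences between 0.86 and 1.36. None of the 6 passed limma's test over all genes at an adjusted p of 0.05. Mcpt4, Gzma, Tpsab1 and 1 of the probe sets of Tpsb2 were near background on all 6 arrays, and the other probe set of Tpsb2 on 5 of 6.

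Signals are MAS5 intensities on a linear scale. Differences are FOG1 ki/ki minus control in log2(signal + 16), a scale on which low signals differ by less than their ratio. A signal is called near background where it lies below the median of the non-control probe sets on its array. That median was 12.3, 11.1 and 5.93 on FOG1 ki/ki replicates 1, 2 and 3, and 10.3, 12.2 and 7.75 on control replicates 1, 2 and 3. The log2 test covered 11284 genes whose mean signal over all arrays exceeded 10.9. The 6 members that entered it also had control means above that value, so none entered through the FOG1 ki/ki arrays alone. The arrays carry one total RNA pool per culture, and fewer cells of a type cannot be told apart from less RNA per cell.

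Both replicate 3 arrays stood apart from the rest, and their signals were deposited with more decimals than those of the other arrays. The FOG1+/+ genotype occurs only at replicate 3. Its effect therefore cannot be told apart from whatever set the replicate 3 arrays apart. Summed over 10 neutrophil and myeloid progenitor markers, the signal was 4746 in FOG1 ki/ki replicate 3 and 2945 in control replicate 3, against 10021 and 17677 on the other FOG1 ki/ki arrays and 13879 and 16960 on the other control arrays. The ratio of 3' to 5' Gapdh signal, a measure of RNA or cDNA integrity, was 1.20, 1.63 and 2.38 on FOG1 ki/ki replicates 1, 2 and 3 and 1.24, 1.74 and 1.86 on control replicates 1, 2 and 3. The brighter Zfpm1 probe set read 480.0, 868 and 1274 in FOG1 ki/ki and 429.7, 862 and 1137 in control cultures, which does not check the genotype, since a knocked-in allele can still be transcribed. The megakaryocyte marker Pf4, a platelet granule chemokine, was high on all arrays, at 3358 to 4105 in FOG1 ki/ki and 3377 to 4156 in control cultures.

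Of the 10 members, 7 have a promoter window in the RefSeq table (build GRCm38.p6, 250 bases before to 50 after the gene start). The windows of 4 genes are shown for these reasons. Gzmb had the largest difference, and among the 6 members tested those of Cpa3 varied least across replicate numbers. Mcpt1 and Mcpt4 have closely related windows, but only Mcpt1 had a signal above background. Capitals mark GATAA, the core of a GATA factor motif, and TGTGGT, a core RUNX motif, each on either strand (TTATC and ACCACA on the opposite one).
Gzmb promoter, chr14:56262285-56262584, minus strand: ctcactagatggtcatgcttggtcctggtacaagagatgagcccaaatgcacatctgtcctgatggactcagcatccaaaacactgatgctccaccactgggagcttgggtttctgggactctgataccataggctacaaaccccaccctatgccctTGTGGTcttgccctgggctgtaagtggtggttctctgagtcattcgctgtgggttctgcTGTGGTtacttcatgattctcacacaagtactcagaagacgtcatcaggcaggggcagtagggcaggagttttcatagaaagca
Mcpt1 promoter, chr14:56017714-56018013, plus strand: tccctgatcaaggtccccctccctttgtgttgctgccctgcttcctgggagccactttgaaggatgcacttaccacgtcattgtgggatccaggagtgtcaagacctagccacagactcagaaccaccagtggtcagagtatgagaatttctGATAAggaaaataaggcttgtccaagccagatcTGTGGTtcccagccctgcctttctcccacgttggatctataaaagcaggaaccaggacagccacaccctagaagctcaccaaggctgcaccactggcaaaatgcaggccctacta
Mcpt4 promoter, chr14:56062261-56062560, minus strand: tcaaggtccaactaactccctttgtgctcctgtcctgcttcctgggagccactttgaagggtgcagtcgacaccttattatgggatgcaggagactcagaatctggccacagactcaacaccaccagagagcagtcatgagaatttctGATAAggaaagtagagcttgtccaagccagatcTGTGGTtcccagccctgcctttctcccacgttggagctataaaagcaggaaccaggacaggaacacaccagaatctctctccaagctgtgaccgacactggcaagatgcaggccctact
Cpa3 promoter, chr3:20242132-20242431, minus strand: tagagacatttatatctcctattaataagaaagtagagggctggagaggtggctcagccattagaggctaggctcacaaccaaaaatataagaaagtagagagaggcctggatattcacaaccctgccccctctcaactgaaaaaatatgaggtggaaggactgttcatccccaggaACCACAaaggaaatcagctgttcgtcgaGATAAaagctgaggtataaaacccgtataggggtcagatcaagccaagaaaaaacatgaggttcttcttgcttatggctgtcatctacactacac
Mcpt1 and Mcpt4 matched at 254 of 312 alignment columns (81.4%), and both hold 1 GATAA and 1 TGTGGT. Cpa3 holds GATAA 45 bases and the reverse of TGTGGT 73 bases before its start. Gzmb holds TGTGGT at 2 places and no GATAA. Among the windows not shown, Cma1 has 1 of each motif, Mcpt8 has 2 TGTGGT and no GATAA, and Gzma has 1 TGTGGT and no GATAA. Across all 32851 windows 25.4% hold GATAA, 16.8% hold TGTGGT and 1.81% hold TGTGGT at 2 or more places. The motifs did not overlap in these genes. A match is only a description of the letters.

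In the same annotation Cma1, Mcpt1, Mcpt2, Mcpt4, Mcpt8 and Gzmb lie in that order in 1 cluster on chromosome 14, with Ctsg and further granzyme genes between Mcpt8 and Gzmb. Cpa3 is on chromosome 3, Gzma on chromosome 13, and Tpsb2 and Tpsab1 neighbour each other on chromosome 17, where Tpsab1 is annotated as a transcribed pseudogene in the C57BL/6J reference. Mcpt1 and Mcpt2 are close relatives, as are the granzyme genes of the cluster, and signal shared between such copies cannot be told apart without the probe sequences, which were not used here.

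Granzyme B, encoded by Gzmb, is a serine protease that triggers apoptosis of target cells. Its signal was 509.6, 923 and 1785 in FOG1 ki/ki replicates 1, 2 and 3, against 327, 189 and 5.96 in control replicates 1, 2 and 3. Every FOG1 ki/ki array lay above every control array, and control replicate 3, the FOG1+/+ array, was the only array near background. The log2 difference was 3.06 (SE 0.97, 95% interval 0.81 to 5.30), with limma adjusted p = 0.483. Within equal replicate numbers the log2 differences were 0.61, 2.20 and 6.36. The last has a control signal near background, so its size is set in part by the pseudocount and is no measured fold, and the mean difference was 3.64 with a pseudocount of 1 and 2.41 with 64. The size of the mean difference thus rested largely on the replicate 3 arrays. It was 1.86 without control replicate 3, which leaves the FOG1+/- controls, and 1.41 without both replicate 3 arrays. Granzyme A, a trypsin-like protease encoded by Gzma, read from 0.15 to 2.5 in FOG1 ki/ki and from 0.08 to 0.2 in control cultures, near background on all 6 arrays.

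**Figure D1:**
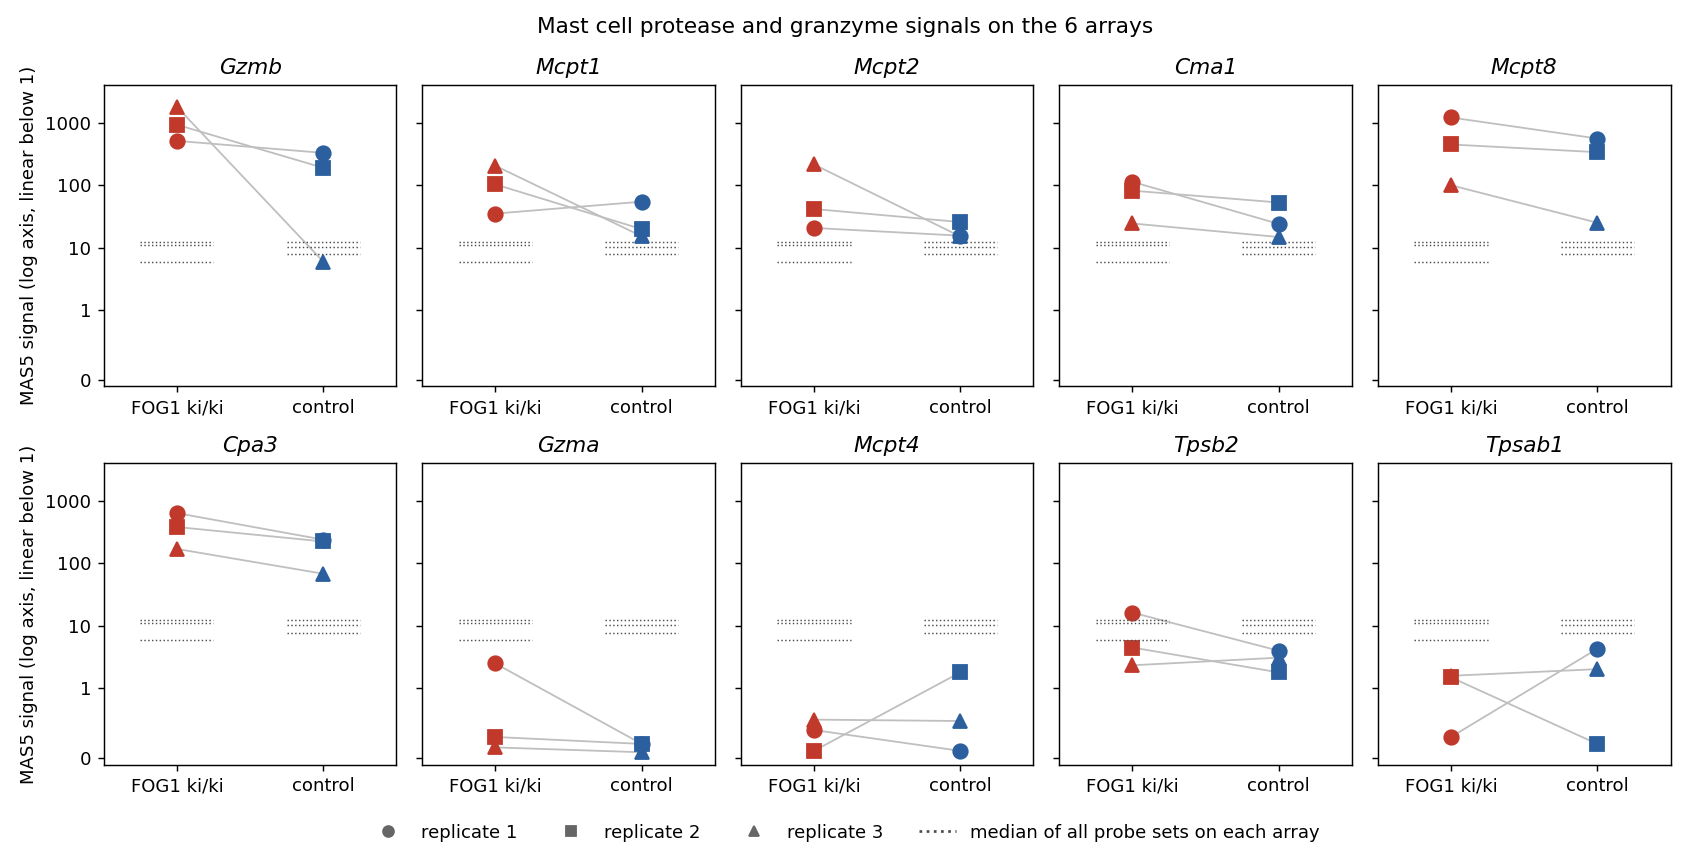
MAS5 signal of the 10 genes on each array (log axis, linear below 1), FOG1 ki/ki left of control, with lines joining equal replicate numbers and dotted lines at each array's median over all non-control probe sets; Tpsb2 is shown by its brighter probe set. Only Gzmb has groups that do not overlap, and Gzma, Mcpt4, Tpsb2 and Tpsab1 lie at or near the dotted lines or below them.

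Among the chymases, Mcpt1 and Mcpt2, the mucosal mast cell members of the family, both read highest on FOG1 ki/ki replicate 3. Mcpt1 had a signal of 35.0, 102 and 204 in FOG1 ki/ki replicates 1, 2 and 3, against 54.2, 19.7 and 15.2 in control replicates 1, 2 and 3. The groups overlapped, since FOG1 ki/ki replicate 1 read below control replicate 1. The log2 difference was 1.36 (SE 0.56, 95% interval 0.05 to 2.67, limma adjusted p = 0.716), with pair differences of -0.46, 1.73 and 2.82. Mcpt2 had 20.6, 41.4 and 214 in FOG1 ki/ki replicates 1, 2 and 3, against 15.5, 25.6 and 15.1 in control replicates 1, 2 and 3. Only FOG1 ki/ki replicate 3 stood far above the rest, whereas Mcpt1 was also high on FOG1 ki/ki replicate 2. For Mcpt2 the pair differences were 0.22, 0.46 and 2.89. Its log2 difference was 1.19 (SE 0.63, limma adjusted p = 0.889), and 0.34 without both replicate 3 arrays.

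Cma1 encodes a chymase of connective tissue mast cells, known as mast cell protease 5, and it read highest on FOG1 ki/ki replicate 1. Its signal was 113, 81.4 and 24.3 in FOG1 ki/ki replicates 1, 2 and 3, against 23.9, 52.6 and 14.7 in control replicates 1, 2 and 3. The groups overlapped, while each FOG1 ki/ki array exceeded the control array of the same number. The log2 difference was 0.86 (SE 0.50, limma adjusted p = 0.922), with pair differences of 1.69, 0.51 and 0.39. Mcpt4, the connective tissue chymase regarded as the closest counterpart of human chymase, read 0.1 to 0.55 in FOG1 ki/ki and 0.1 to 1.8 in control cultures. It was near background on all arrays, so no difference in it could be measured.

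Mcpt8 is a protease known as a marker of mouse basophils. Its signal was 1206, 446 and 99.4 in FOG1 ki/ki replicates 1, 2 and 3, against 555, 336 and 24.95 in control replicates 1, 2 and 3. The spread between replicates was wider than the difference between the groups, because both replicate 3 arrays were far below the others. The log2 difference was 0.995 (SE 1.12, 95% interval -1.595 to 3.59, limma adjusted p = 0.999), and pair differences were 1.10, 0.39 and 1.495. Without control replicate 3 it turned to -0.156, and without both replicate 3 arrays it was 0.745.

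Cpa3, the carboxypeptidase that mast cells store with chymases, had a signal of 637.5, 382 and 170.1 in FOG1 ki/ki replicates 1, 2 and 3, against 239, 224 and 68.2 in control replicates 1, 2 and 3. FOG1 ki/ki replicate 3 read below the FOG1+/- controls, so the groups overlapped. The log2 difference was 1.08 (SE 0.57, 95% interval -0.25 to 2.40, limma adjusted p = 0.892). The pair differences of 1.36, 0.73 and 1.14 were close to one another, with SE 0.18 when the replicate number was a block (limma adjusted p = 0.0621).

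The tryptases, which form tetramers with trypsin-like activity in connective tissue mast cells, were at the limit of detection. The brighter Tpsb2 probe set read 16.3, 4.5 and 2.34 in FOG1 ki/ki replicates 1, 2 and 3, against 4.0, 1.8 and 3.1 in control replicates 1, 2 and 3. Only FOG1 ki/ki replicate 1 exceeded its array median. The other Tpsb2 probe set read at most 3.3 in FOG1 ki/ki and 3.1 in control cultures, and Tpsab1 at most 1.59 in FOG1 ki/ki and 4.3 in control cultures. The mixed strain background of these mice includes C57BL/6, a strain known to lack a functional Tpsab1 product.

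**Figure D2:**
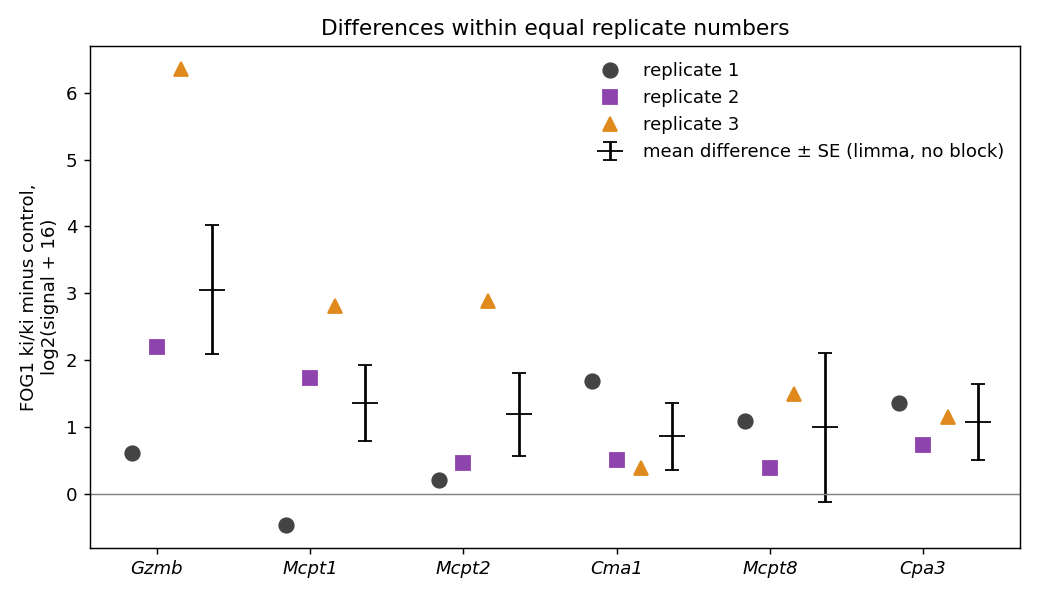
Difference in log2(signal + 16), FOG1 ki/ki minus control, within each replicate number for the 6 genes above background, with the mean difference and its standard error from limma. The 3 differences of Cpa3 lie between 0.73 and 1.36, while those of Gzmb run from 0.61 to 6.36, the last against a control signal near background, and that of Mcpt1 is -0.46 for replicate 1.

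Set against all 11284 genes, the members' differences were large but variable. With limma 17 genes passed an adjusted p of 0.05 (0.151%), 11 of them higher (0.0975%) and 6 lower (0.0532%) in FOG1 ki/ki, and 0 of the 6 members did. At an unadjusted p under 0.05, 2 members were higher, Gzmb and Mcpt1, against 3.03% of all genes. All 6 had a log2 difference above 0, as did 54.9% of all genes, and above 0.5, as did 6.66%. The difference exceeded 1 for Gzmb, Mcpt1, Mcpt2 and Cpa3, and for 1.73% of all genes. Their median was 1.13, against 0.03 over all genes. Groups did not overlap for 1 member, Gzmb, and for 6.3% of all genes in that direction. FOG1 ki/ki exceeded control at all 3 replicate numbers for 5 of the 6, all but Mcpt1, against 24.7% of all genes. With the replicate number as a block 97 genes were called (0.86%), with 0.425% higher and 0.434% lower, and still 0 members passed, with adjusted p from 0.0621 for Cpa3 to 0.30 for Mcpt2. At an unadjusted p under 0.05 the blocked fit had 4 members higher, Gzmb, Cma1, Mcpt8 and Cpa3, against 7.98% of all genes. The members were picked with results of these arrays known, so these shares are descriptions.

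**Figure D3:**
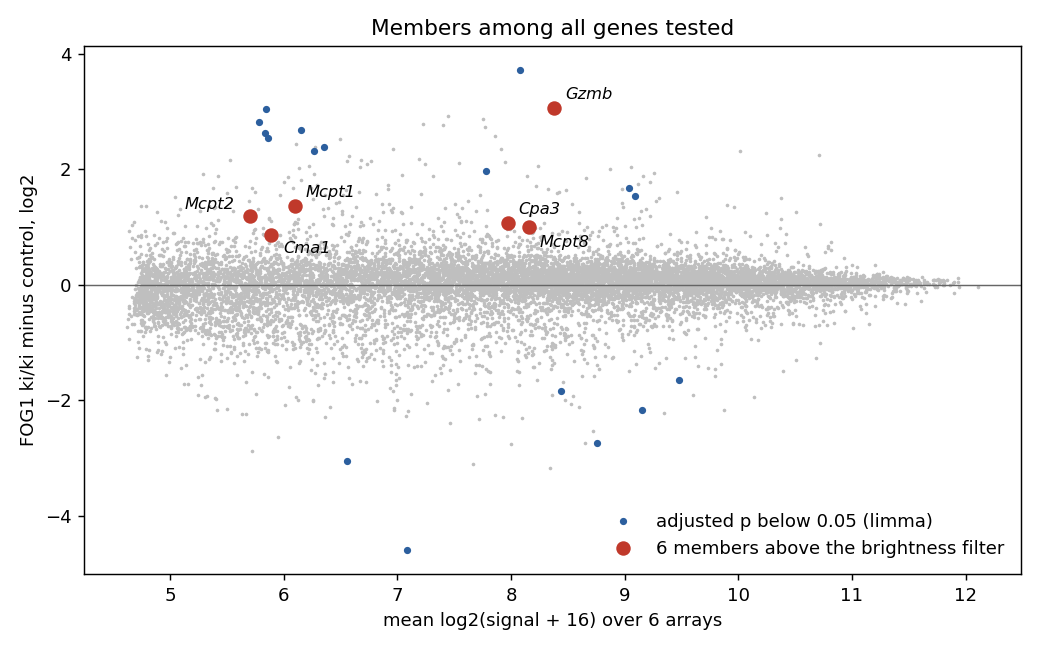
Each tested gene by its mean log2(signal + 16) over the 6 arrays and its log2 difference, FOG1 ki/ki minus control, with the 17 genes past limma's test in blue and the 6 members in red. Gzmb, at 3.06, lies at the upper edge of the cloud, and the other 5 lie between 0.86 and 1.36.

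The 6 genes did not vary together over the arrays, though each had its lowest control signal on control replicate 3. Gzmb, Mcpt1 and Mcpt2 had their highest signal on FOG1 ki/ki replicate 3. Cpa3, Cma1 and Mcpt8 read lowest on the replicate 3 array within each group. Likeness was measured as the root mean square difference between profiles of log2(signal + 16), each centred on its mean over the 6 arrays, where 0 would be the same profile. Between members it was smallest for Cma1 and Cpa3 (0.39), Mcpt1 and Mcpt2 (0.54) and Mcpt8 and Cpa3 (0.80). It was largest for Mcpt2 and Mcpt8 (2.11). The measure is small where both profiles vary little. With tested genes ordered by nearness, Mcpt2 stood at rank 26 for Mcpt1, and Cpa3 at rank 29 for Mcpt8 and 70 for Cma1. Among all tested genes, Gzmb was closest to Bex4 (0.66), to the IgE receptor chain Fcer1a (0.69) and to Ppp1r14c (0.73). Fcer1a read 3317, 3696 and 3912 in FOG1 ki/ki replicates 1, 2 and 3, against 1891, 2168 and 93.1 in control replicates 1, 2 and 3. Mcpt1 was closest to Cacna2d1 (0.25), Fhdc1 (0.36) and Trim7 (0.38), and Mcpt2 to Fam189a2 (0.25), Rfx5 (0.36) and again Fhdc1 (0.38). Fam189a2 read 2.8, 10.3 and 157 in FOG1 ki/ki replicates 1, 2 and 3, against 4.8, 12.4 and 2.8 in control replicates 1, 2 and 3. Only FOG1 ki/ki replicate 3 was thus far above background for Fam189a2. Cma1 was closest to St6galnac2 (0.17), Cep295 (0.18) and Mapt (0.21), and Cpa3 to Ece1 (0.21), Trib3 (0.23) and Zcchc3 (0.24). Mcpt8 was closest to the immunoglobulin kappa genes Igkv8-30 (0.39) and Igk (0.51), and to the kallikrein gene Klk8 (0.47). With 6 arrays and 11284 genes, close profiles are easily found.

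**Figure D4:**
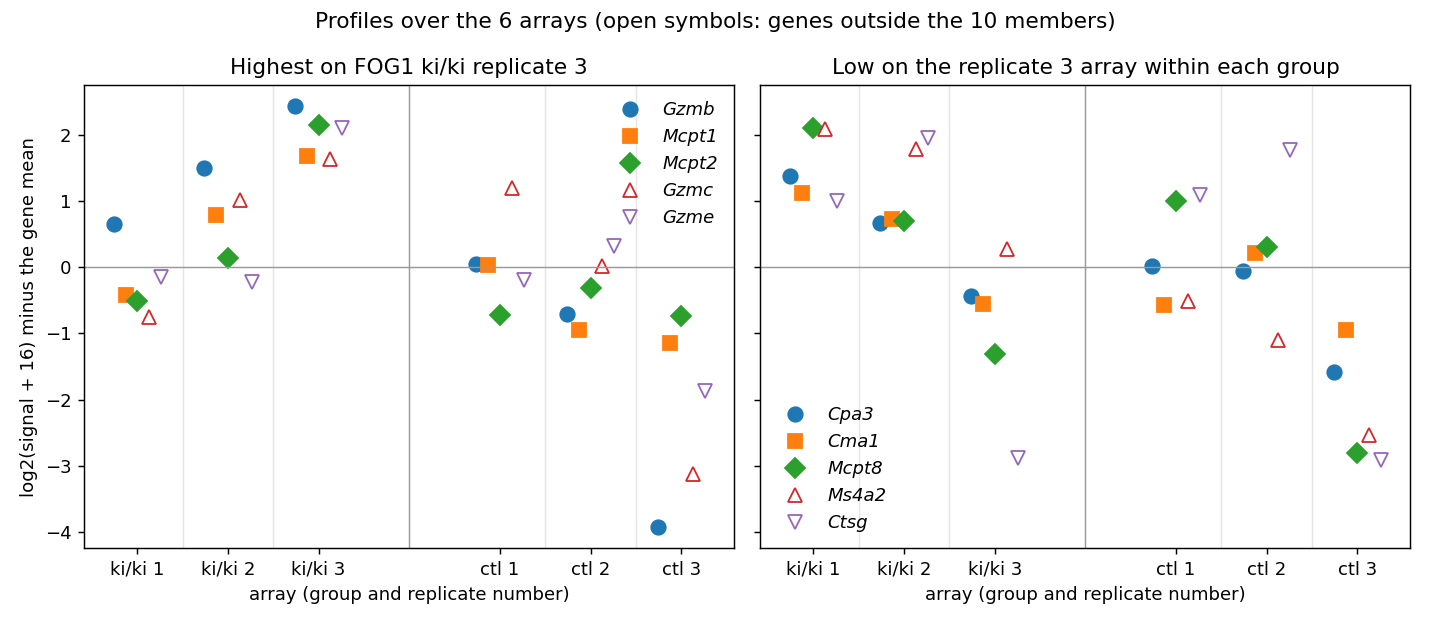
log2(signal + 16) minus the gene's mean for each array, FOG1 ki/ki left of control in each panel, with members as filled and other genes as open symbols; the genes were sorted into panels after their values were seen. On the left Gzmb, Mcpt1, Mcpt2, Gzmc and Gzme are highest on FOG1 ki/ki replicate 3, and lowest among the controls on control replicate 3. On the right Cpa3, Cma1, Mcpt8, Ms4a2 and Ctsg are lowest within each group on the replicate 3 array.

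Of 9 other genes listed from the chromosome 14 cluster, 7 had a probe set of their own and 3 were above the brightness filter, with 0 passing limma's test in either direction and a median log2 difference of 1.16. That median came from the replicate 3 arrays: within equal replicate numbers it was -0.09, 0.17 and 3.97, and both Gzmc and Gzme were near background on control replicate 3. Gzmc, a granzyme of cytotoxic lymphocytes, had 106, 402 and 624 in FOG1 ki/ki replicates 1, 2 and 3, against 458, 193 and 7.62 in control replicates 1, 2 and 3. Unlike Gzmb, it read lower in FOG1 ki/ki than in control at replicate 1 (log2 difference 1.27, limma adjusted p = 0.982). Gzme had 37.1, 34.3 and 235 in FOG1 ki/ki replicates 1, 2 and 3, against 35.2, 56.9 and 0.09 in control replicates 1, 2 and 3 (log2 difference 1.16, limma adjusted p = 0.945). Its probe set is of a kind that can pick up similar genes. Ctsg, the neutrophil protease cathepsin G, read 822, 1603 and 40.9 in FOG1 ki/ki replicates 1, 2 and 3, against 876, 1426.5 and 40.0 in control replicates 1, 2 and 3, with a log2 difference of 0.03. Outside the cluster, 1 of 2 other granzymes was tested, Gzmm (log2 difference -0.60, limma adjusted p = 0.945), and 1 of 7 other tryptase-like genes, Prss41 (-0.21, limma adjusted p = 0.999).

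Of 24 mast cell genes other than proteases, 16 were tested, 11 were above control and 0 passed limma's test in either direction (median log2 difference 0.44). Ms4a2, the beta chain of the IgE receptor, had 704, 564 and 189 in FOG1 ki/ki replicates 1, 2 and 3, against 102, 62.9 and 13.3 in control replicates 1, 2 and 3. The groups did not overlap, as for 6.3% of all genes in that direction. Its log2 difference of 2.77 missed the threshold in the fit without a block (limma adjusted p = 0.255) and passed it with the replicate number as a block (limma adjusted p = 0.00858). Gata2, which mast cells and blood progenitors express, was at 1.248, Slc18a2, which loads amines into granules, at 1.13, and the adaptor Lat2 at 1.35 (limma adjusted p from 0.227 to 0.380). The 5 tested genes of the list that were below control, named after their values were seen, were Cnrip1 at -0.75, Cysltr1 at -0.70, Hpgds at -0.32, Gata1 at -0.13 and Fcer1g at -0.04 (limma adjusted p from 0.941 to 0.999). Cnrip1, Cysltr1 and Gata1 were below control at all 3 replicate numbers. Fcer1a, Ms4a2, Hdc, Gata2, Slc18a2, Cd200r3, Adora3, Csf2rb and Lat2 were above control at all 3, as were 24.7% of all genes. Fcer1a, whose groups also did not overlap, was at 2.25 (limma adjusted p = 0.799), with pair differences of 0.81, 0.77 and 5.17. Kit, the receptor on which mast cells depend, was dim in both groups, at 31.8 to 47.9 in FOG1 ki/ki and 10.7 to 41.6 in control cultures. Of 7 basophil markers other than Mcpt8, 5 were tested, 3 were above control and 0 passed (median 0.25). Among them Cd200r3 was at 0.61, Il3ra at 0.44, Cd69 at 0.25 and Itga2 at -1.21 (limma adjusted p from 0.916 to 0.994).

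Genes that store and mature these proteases showed no shared direction. Of 18 genes of granule proteoglycan and protease processing, 15 were tested, 6 were above control and 0 passed limma's test (median log2 difference -0.02). Srgn, the serglycin core protein, was at -0.02, and Ctsc, the dipeptidyl peptidase that activates granzymes and chymases, at -0.71 (limma adjusted p = 0.999 and 0.939). Hs6st1 and Chst15, sulfotransferases of glycosaminoglycan chains, were at 0.71 and 1.31, and the lysosomal protease Ctsl at -0.67 (limma adjusted p = 0.533, 0.678 and 0.889). For Chst15 the pair differences were 0.45, 0.70 and 2.79, and control replicate 3 was near background at 2.17. Its dimmer probe set was at 0.28.

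Of 9 protease inhibitors listed, 8 were tested, 4 were above control, and 0 passed without the block (median 0.41). Serpinb6b, an intracellular serpin, had 676.5, 878 and 710.4 in FOG1 ki/ki replicates 1, 2 and 3, against 299.8, 209 and 122 in control replicates 1, 2 and 3. Serpinb9, an inhibitor of granzyme B, had 472, 560.0 and 383 in FOG1 ki/ki replicates 1, 2 and 3, against 243, 271 and 203 in control replicates 1, 2 and 3. For both, every FOG1 ki/ki array lay above every control array, as for 6.3% of all genes in that direction. Their log2 differences were 1.84 and 0.93 (limma adjusted p = 0.138 and 0.320), and with the replicate block both rose (limma adjusted p = 0.0422 and 0.0476). Slpi, a secreted inhibitor of elastase and cathepsin G, had 292, 350 and 31.6 in FOG1 ki/ki replicates 1, 2 and 3. It had 1145, 1565 and 553 in control replicates 1, 2 and 3. Its log2 difference was -2.54 (limma adjusted p = 0.446), and it fell with the block (limma adjusted p = 0.0388). Serpinb6a was at -0.62 (limma adjusted p = 0.407), reading 819.5 to 913 in FOG1 ki/ki and 1058 to 1541 in control cultures.

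Markers of other cells that could carry these transcripts are given with their values. Their part in the differences was not tested. Of 18 NK and cytotoxic T cell markers, 17 had a probe set, 4 were tested and 9 were near background on all 6 arrays (median -0.10, 0 passing limma's test). The summed signal of the 4 was 1469 to 1953 in FOG1 ki/ki and 1230 to 1552 in control cultures. The defining markers Ncr1 and Cd3e read at most 3.5 and 10.7 in FOG1 ki/ki and 3.7 and 10.5 in control cultures, and only on FOG1 ki/ki replicate 3 and control replicate 1 did Cd3e exceed its array median. Prf1, the perforin that granzymes require, was at -0.22, Cst7 at 0.02, Ctsw at -0.81 and Nkg7, a granule membrane protein, at 2.06 (limma adjusted p = 0.999, 0.999, 0.693 and 0.433). Nkg7 read 686, 645 and 486 in FOG1 ki/ki replicates 1, 2 and 3, against 205, 273 and 34.7 in control replicates 1, 2 and 3. Its groups did not overlap, as for 6.3% of all genes in that direction. The largest part of the summed signal was Cst7, at 869 to 1134 in FOG1 ki/ki and 925 to 1179 in control cultures. The 4 tested of 8 eosinophil markers had a summed signal of 110 to 2086 in FOG1 ki/ki and 40 to 2218 in control cultures, lowest on both replicate 3 arrays (Siglecf at 0.87, Epx at 0.02, Prg3 at -0.05 and Prg2 at -0.09). The 10 neutrophil and progenitor markers had a median of -0.04, with Ms4a3 at 0.73, Camp at -0.38, Prtn3 at -0.39 and Ltf at -0.43. All 10 macrophage markers were below control (median -0.87), while 54.9% of all genes were above it. Their summed signal was 3946 to 10940 in FOG1 ki/ki and 8246 to 14265 in control cultures. Within equal replicate numbers the median was -1.87, -0.44 and -0.30, so it was lowest at replicate 1. Csf1r, Cd14 and Lyz2 were above control at replicate 3. Trem2 was at -1.27, Cd68 at -1.26, Adgre1 at -1.31 and C1qc at -0.99. Of 12 megakaryocyte markers 10 were tested, and all 10 were below control (median -0.20). Within equal replicate numbers that median was -0.15, -0.40 and -0.16. Tubb1 was at -1.01, Gp6 at -1.35, Gp1bb at -0.52, Gp9 at -0.28 and Itga2b at -0.07. Over the 12 lists 0 of 85 genes passed limma's test without the block, and 9 higher and 8 lower genes had an unadjusted p under 0.05, a level that 6.68% of all genes reached in either direction. With the block 14 were higher at that unadjusted level, as were 7.98% of all genes in the blocked fit. Another 20 were lower, for which the share over all genes is not given here. After adjustment 3 of the 85 rose with the block, Ms4a2, Serpinb6b and Serpinb9, against 0.425% of all genes, and 2 fell, Slpi and Gp6, against 0.434%.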

How the data were processed

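RNA of 6 megakaryocyte cultures was amplified and labelled with NuGEN kits, per the labels' protocols. The authors deposited 1 linear intensity per probe set and array, and the submitters' processing notes name MAS5 as the tool. Its version is not given in the sources used here. Each column has a 2% trimmed mean of 150.0, so arrays were scaled to one target, and a change in total RNA per cell cannot be seen. The number of arrays limits the precision, and the labels call the samples biological replicates without naming animals.

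Of 45101 probe sets, 64 controls were left out. Of all probe sets 34958 named 1 gene, 932 several and 9211 none, from the platform annotation, and 34754 matched the RefSeq table (GRCm38.p6). Intensities were taken as log2(signal + 16). Probe sets in the lower 50% by mean signal were left out, and the brightest remaining one stood for its gene. The groups were compared with limma 3.58.1 (lmFit and trended eBayes, R 4.3.3), and p-values were adjusted over 11284 genes by the Benjamini-Hochberg method. The fit was tested on simulated data with independent noise on each array. That simulation held no link between arrays of equal number, which the real arrays had. Python 3.11.15, pandas 2.3.3, numpy 2.4.6, matplotlib 3.10.9 and Biopython 1.88 (global alignment) did the rest.

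After the group means were subtracted, arrays of equal number correlated at 0.436, 0.647 and 0.596, and the numbers were read as pairs on that basis. The members, the 12 lists of other genes and the naming rule were chosen with earlier results of these data known. The rule named all members, up to 4 genes per list with the smallest unadjusted p, a few fixed markers, and the 3 genes nearest each member in profile. The alternatives were other pseudocounts, scalings, filters and probe set rules, a replicate block, and leaving out arrays or pairs.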

Additional observations from a re-analysis of the deposited data

How the results depend on the processing

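No member passed the test under any of the 18 alternatives. Over all genes, the 17 calls became 8 with a pseudocount of 1, 1 with no filter on dim probe sets, 4 in the brightest 25% of probe sets, 1 when each probe set was fitted on its own and 97 with the replicate block. They numbered 0 to 2 when an array or a pair of equal number was left out. Gzmb, Cpa3, Cma1, Mcpt1 and Mcpt2 kept their direction under each alternative that gave a value. Leaving out arrays moved Gzmb between 1.41 and 4.28, Cpa3 between 0.557 and 1.56, Cma1 between 0.448 and 1.35, Mcpt1 between 0.634 and 2.27, Mcpt2 between 0.34 and 1.74 and Mcpt8 between -0.156 and 1.90. Without control replicate 3, the FOG1+/+ array, each of these differences was smaller than with all arrays. They were 1.86 for Gzmb, 1.13 for Mcpt1, 1.12 for Mcpt2, 0.606 for Cma1 and 0.557 for Cpa3, and Mcpt8 turned to -0.156. Mcpt8 was 0.745 without both replicate 3 arrays, and the cause was not tested. With the replicate block, adjusted p was 0.195 for Gzmb, 0.0621 for Cpa3 and 0.107 for Mcpt8, and no call on a member changed. With a pseudocount of 1 the genes near background moved to 0.58 for Gzma, -0.326 for Mcpt4, 0.824 for Tpsb2 and -0.398 for Tpsab1, because values near 0 are then spread out. Mcpt1, Mcpt2 and Cma1 fell outside the brightest 25% and have no value there, and genes near background have none there or as a mean of filtered probe sets. Low signal over background limits Gzma, Mcpt4 and Tpsab1 on all arrays, Tpsb2 on all but FOG1 ki/ki replicate 1, and Gzmb on the FOG1+/+ array.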

Other observations

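Among granzyme genes below the brightness filter, Gzmd read 49.4 on FOG1 ki/ki replicate 3, the array on which Gzmb, Gzmc and Gzme were also highest. It read 9.2 and 1.4 on FOG1 ki/ki replicates 1 and 2, and 0.2, 1.9 and 0.19 on control replicates 1, 2 and 3. It was singled out after its values were seen, and its probe set is of a kind that can pick up similar genes. Gzmg read 12.5 on FOG1 ki/ki replicate 1, just above that array's median of 12.3, and at most 0.1 on the other FOG1 ki/ki arrays and 1.5 on control arrays. Gzmf, Gzmn and Gzmk read at most 4.7 in FOG1 ki/ki and 4.3 in control cultures.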
